A study of Mus musculus with 11 samples.

Results

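RNA was measured in mouse embryonic stem cells (ESCs) from which CTCF was depleted with auxin. The cells were EV cells of 1 line, EN52.9.1, labelled CTCF-AID: CTCF is fused to an auxin-inducible degron, so that auxin brings it to a ubiquitin ligase and it is degraded. There were 3 libraries of EV cells without auxin, labelled wild-type and called EV untreated here, and 2 of EV cells given 500 µM of the auxin indole-3-acetic acid, labelled as depleted of endogenous CTCF and called EV auxin. They were chosen by their titles and are 5 of the 11 RNA libraries of the series. The other libraries came from auxin-treated cells with reintroduced CTCF, either FL or carrying the H373R substitution, and were not compared here. They entered only the shared fit, through the filter on low counts, the scaling, any correction for GC content and length, and the spread between libraries. Both EV groups share the cell line, the degron and a serum medium with leukaemia inhibitory factor. The labels do not give the time in auxin, name no separate cultures or clones and spell out no meaning of EV. A line treated with auxin but lacking the degron was not analysed here, so loss of CTCF and other effects of auxin cannot be told apart.

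CTCF is a zinc finger protein that binds a long DNA motif and halts the cohesin ring, so that chromatin loops and domain boundaries form at its sites. It also binds close to the start of many genes, where it can act as an activator or hold an enhancer in reach, and at boundaries it can keep an enhancer away from a neighbouring gene. Clustered protocadherins are a textbook example, since most of their promoters carry a CTCF site through which the distant enhancer is reached.

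Some of the genes that fell have the core of a CTCF motif just before a RefSeq start. Shown are 10 such stretches, so that the letters and place of the core can be read beside the values. RefSeq promoter windows (GRCm38.p6, 250 bases before to 50 after each start) were searched on both strands for the core of the CTCF motif, in a short form of 9 letters (AGNNGGCGC) and in a long form that also asks for CC with 3 free bases between it and the short form. The stretches shown are those of the genes with the largest falls among genes at least 2-fold lower in EV auxin that averaged 1 or more in log2 CPM (counts scaled to library size) over the EV libraries, had groups that do not overlap and had a long form on the gene's own strand wholly before the start. They are printed on the gene's strand, and capitals mark the long form. A gene can have several RefSeq starts, and each was searched. The starts used for Abhd14b and Pxylp1 lie inside the genes as placed by GENCODE (chr9:106447459-106452923 and chr9:96823336-96892669).
Ube2cbp, chr9:86464946-86464989, minus strand: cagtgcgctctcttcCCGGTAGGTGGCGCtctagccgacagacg
Abhd14b, chr9:106448570-106448613, plus strand: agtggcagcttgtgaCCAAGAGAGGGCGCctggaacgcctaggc
Dph7, chr2:24962358-24962401, plus strand: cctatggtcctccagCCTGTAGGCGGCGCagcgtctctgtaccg
B3glct, chr5:149678196-149678229, plus strand: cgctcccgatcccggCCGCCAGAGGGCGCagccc
Adprhl2, chr4:126321731-126321774, minus strand: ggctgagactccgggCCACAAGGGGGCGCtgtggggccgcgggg
Synm, chr7:67759841-67759884, minus strand: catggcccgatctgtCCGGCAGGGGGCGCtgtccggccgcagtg
Zfp398, chr6:47835582-47835625, plus strand: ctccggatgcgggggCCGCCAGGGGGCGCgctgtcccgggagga
Pxylp1, chr9:96889475-96889504, minus strand: agggacccggcggtcCCGGTAGGGGGCGCt
Vps36, chr8:22192740-22192783, plus strand: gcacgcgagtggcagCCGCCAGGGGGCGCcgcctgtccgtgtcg
Rsad1, chr11:94549271-94549314, minus strand: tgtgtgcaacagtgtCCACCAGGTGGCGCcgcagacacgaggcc
A match is only a description of the letters. Binding of CTCF was not measured in these libraries.

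Each library held between 17468219 and 29902246 counts, and 16420 of 55228 gene symbols had enough counts to be tested. EV untreated replicate 1 stood apart. Its counts differed from those of replicates 2 and 3 by a chi-square of 14.5 and 13.6 per degree of freedom, against 1.88 between replicates 2 and 3 and 2.52 between the EV auxin libraries, and its deviations from the group mean followed the GC content of genes (r = 0.56 across 16242 genes, which are not independent replicates). Counts are therefore also given without it. The summed level of 10 ESC markers was 12484 to 12958 TPM (a level corrected for gene length and library size) in EV untreated and 12211 to 12550 TPM in EV auxin, with 1 marker higher (Klf4), 2 lower (Sox2 and Esrrb) and none at 0. Of 10 markers of feeder fibroblasts, 1 of the 5 tested was higher and 1 lower, Lum and Fap were listed at 0 and the sum was 65.7 to 70.9 TPM against 65.2 to 71.7 TPM. The Ctcf transcript, which the degron does not touch, stood at 294, 344 and 339 CPM in EV untreated and 364 and 359 CPM in EV auxin (log2 fold change 0.15 ± 0.064 SE, edgeR adjusted p = 0.113), and so gave no check of the depletion.

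With auxin, 3392 genes (20.7% of those tested) passed an edgeR adjusted p of 0.05. Of these 1849 (11.3%) were higher and 1543 (9.4%) lower, and 560 (3.41%) had changed at least 2-fold. Falls outnumbered rises among changes of at least 4-fold, but not among all changes. At least 2-fold, 281 genes were lower and 279 higher, at least 4-fold 85 were lower and 32 higher, and at least 8-fold 24 were lower and 7 higher. Above a mean log2 CPM of 1 the at least 4-fold changes were 29 falls and 5 rises. Protein-coding genes at least 4-fold lower had a median level of 5.55 TPM in untreated cells, and those at least 4-fold higher 0.254 TPM (chromosome 18 left out). Without EV untreated replicate 1, 5444 genes passed (2606 higher, 2838 lower), 3246 of the 3392 among them and all of these in the same direction, with 301 lower and 328 higher at least 2-fold and 78 lower and 44 higher at least 4-fold. The count was 2036 without EV auxin replicate 1 and 1569 without EV auxin replicate 2; the remaining auxin library is there assumed to vary like the other groups.

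**Figure D1:**
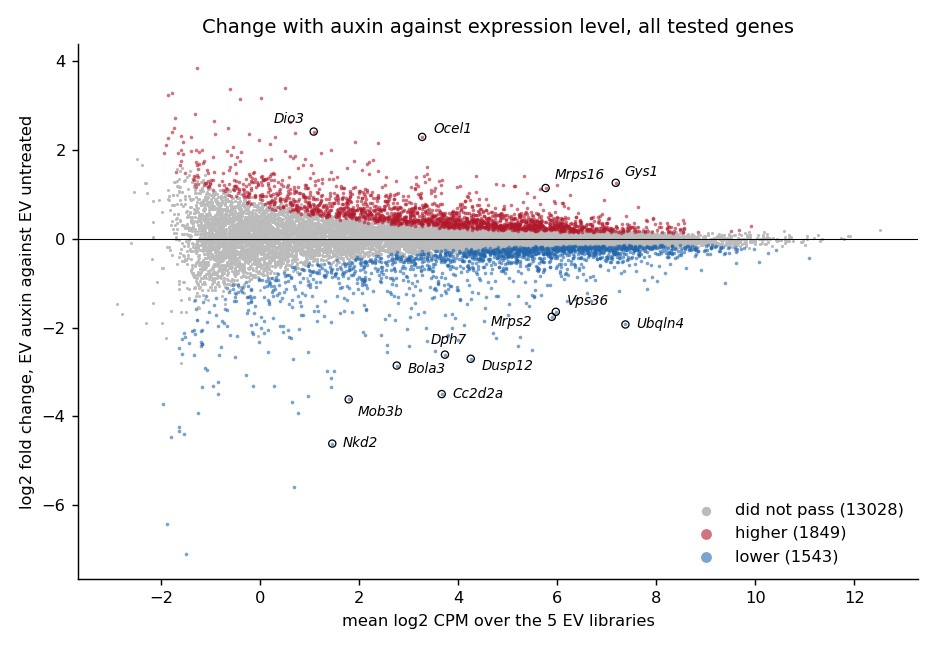
Log2 fold change of EV auxin against EV untreated (vertical axis) against the mean log2 CPM of the 5 EV libraries (horizontal axis), 1 point per tested gene. Red points are the 1849 genes called higher, blue points the 1543 called lower, grey points did not pass, and circles mark genes described in the text; points far below 0 extend to higher expression levels than points far above 0.

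The 12 largest falls above that level were spread over many chromosomes. Nkd2 (chr13:73818534-73847631), which binds Dishevelled and dampens Wnt signalling, went from 8.59, 9.2 and 9.14 CPM to 0.456 and 0.291 CPM, 24.5-fold lower. Mob3b (chr4:34949074-35157484), of the MOB family of kinase regulators, had 8.66, 8.52 and 9.55 CPM in untreated cells and 0.855 and 0.623 CPM with auxin. Cc2d2a (chr5:43662346-43740972), a protein of the ciliary transition zone, was the most abundant of the 3 at 32.3, 32.9 and 35.3 CPM and was left with 2.40 and 3.40 CPM. The fitted falls of these 3 genes were 11.3-fold to 24.5-fold. The rule that named them asks for groups that do not overlap, here and for the largest rises.

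Others of the 12 had functions of several kinds. Bola3, needed to build iron-sulphur clusters in mitochondria, fell from 15.8, 13.4 and 14.9 CPM to 1.82 and 2.20 CPM. Ndufaf3, an assembly factor of respiratory complex I, fell from 13.1, 11.8 and 10.6 CPM to 1.94 and 2.08 CPM. Dph7 (chr2:24962400-24972163), which acts in the synthesis of diphthamide on the translation factor eEF2, had 27.7, 27.3 and 26.7 CPM and then 4.11 and 4.73 CPM, a change of -2.61 ± 0.093 on the log2 scale (SE; adjusted p = 6.5e-11, edgeR). Dph7 is also among the printed promoters.

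The dual-specificity phosphatase gene Dusp12 had 43.2, 38.7 and 38.2 CPM untreated and 6.16 and 6.14 CPM with auxin. Ube2cbp, a ubiquitin ligase gene, was 7.84-fold lower, Abhd14b, a hydrolase gene, 7.82-fold lower, Hddc3, which codes for a phosphohydrolase, 8.84-fold lower, and Sh3bp5, whose product activates the small GTPase Rab11, 10.2-fold lower. Snhg17, a host transcript of small nucleolar RNAs, was 5.74-fold lower. Dusp12, Hddc3, Sh3bp5, Abhd14b and Ndufaf3 each overlap a tested gene on the other strand. Whether the counting used strand is not given in the sources used here, so reads of such partners could have been mixed, and the partner of Dusp12, Gm26620, was called higher (log2 fold change 1.75).

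Outside that rule, and chosen after their values were seen, were a few falls of other kinds. Ubqln4, which shuttles ubiquitylated proteins to the proteasome, was among the strongly expressed genes at 291, 277 and 281 CPM and fell to 75.2 and 73.5 CPM (edgeR adjusted p = 1.47e-11). Prss41, a serine protease gene, had 5.53, 6.31 and 6.32 CPM untreated but 3 and 2 counts in the auxin libraries, so that it was at least 35.4-fold lower against 3 counts in the smaller library. Dennd6b, of the DENN family, was 11.7-fold lower.

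The genes of the printed promoters, which were chosen for their falls, differed in level. B3glct, which extends O-fucose on thrombospondin repeats, had 10.9, 11.5 and 12.2 CPM and then 1.71 and 2.53 CPM. Adprhl2, which removes ADP-ribose from proteins, had 53.4, 42.8 and 43.1 CPM and then 10.8 and 10.7 CPM. Vps36, a subunit of an endosomal sorting complex, had 96.5, 100.3 and 99.5 CPM and then 31.0 and 32.0 CPM, 3.13-fold lower. Its change was smaller than those of B3glct and Adprhl2 but was measured on the most reads. Synm, an intermediate filament protein gene, was 4.0-fold lower, Zfp398, a zinc finger gene, 3.54-fold lower, Pxylp1, a phosphatase gene of proteoglycan synthesis, 3.31-fold lower and Rsad1, a radical SAM protein gene, 3.0-fold lower.

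**Figure D2:**
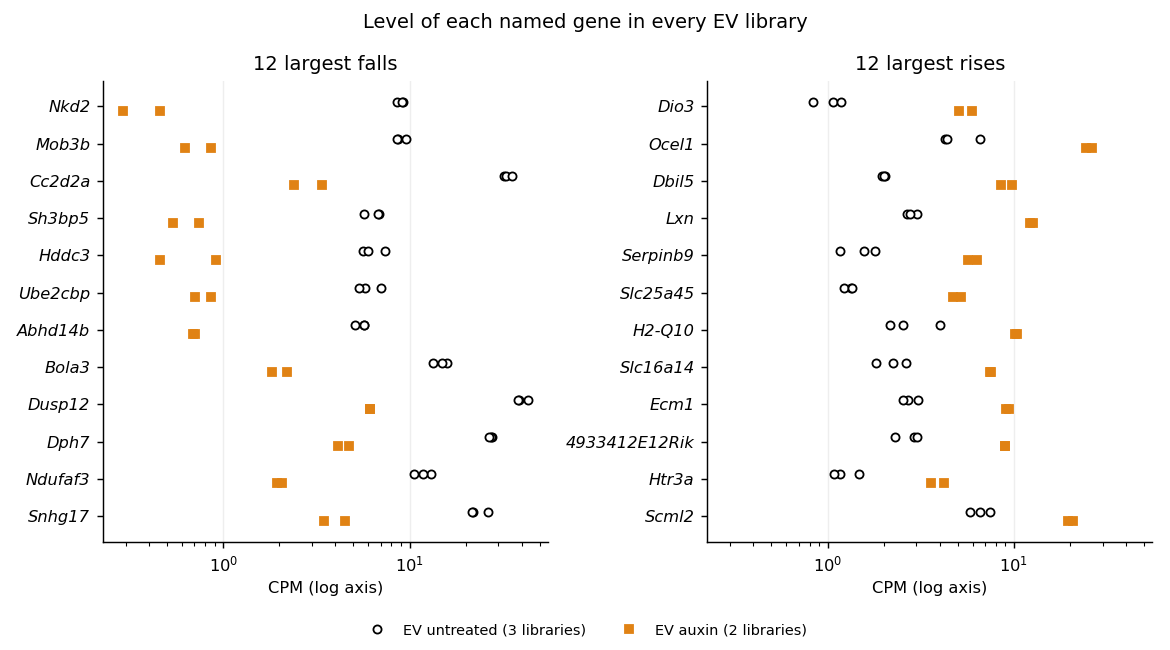
CPM (log axis) of the 12 genes with the largest falls (left) and the 12 with the largest rises (right) in every EV library. Open circles are the 3 EV untreated libraries and orange squares the 2 EV auxin libraries; the naming rule took only genes whose groups do not overlap, and the falls start from up to 43.2 CPM (Dusp12) and the rises from at most 7.44 CPM (Scml2).

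Promoters holding the CTCF core made up a larger share of the genes that fell than of the genes not called, though most promoters of falling genes had no match. Of 13890 tested protein-coding genes (chromosome 18 left out), 11327 (81.5%) had a promoter window. In 51.8% of these a window's start matched the first bases of a GENCODE transcript exactly. A gene counted if any of its windows held a match. The long form was present in 13 of 51 genes at least 4-fold lower (25.5%, exact 95% binomial interval 14.3 to 39.6), in 20 of 134 genes 2-fold to 4-fold lower (14.9%, 9.36 to 22.1), in 55 of 941 genes less than 2-fold lower (5.84%, 4.43 to 7.54), in 192 of 8814 genes not called (2.18%, 1.88 to 2.51) and in 38 of 1214 genes less than 2-fold higher (3.13%, 2.22 to 4.27). Over all genes with a window the share was 2.86%. The intervals of all 3 classes of lower genes lay above that of the genes not called. They cover counting error only, and genes are not independent replicates. Among genes at least 2-fold higher fewer than 80% had a window, so no share is given for them.

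For the short form the shares were 47.1%, 26.1%, 19%, 13.1% and 15.9% in the same order, against 14.2% of all genes. Without EV untreated replicate 1 the long form was in 12 of 46 genes at least 4-fold lower (26.1%) and the short form in 24 of them (52.2%). The size of the difference depended on how the motif was spelled. In all 9 spellings were searched, 7 of them added after values had been seen, and the share among genes at least 4-fold lower ran from 3.92% (against 0.953% of genes not called) for CCAC, 1 free base, AG, 2 free bases and GGC, to the 47.1% of the short form. It was above that of the genes not called for each spelling. For 3 spellings it rested on 2, 3 and 4 of 51 genes, and its interval overlapped that of the genes not called. These intervals were 0.478 to 13.5 against 0.761 to 1.18, 1.23 to 16.2 against 1.05 to 1.53, and 2.18 to 18.9 against 2.85 to 3.60. Genes at least 4-fold lower did not have a larger share than genes 2-fold to 4-fold lower for 3 of the spellings, with 11.8% against 15.7%, 7.84% against 8.96% and 3.92% against 4.48%.

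**Figure D3:**
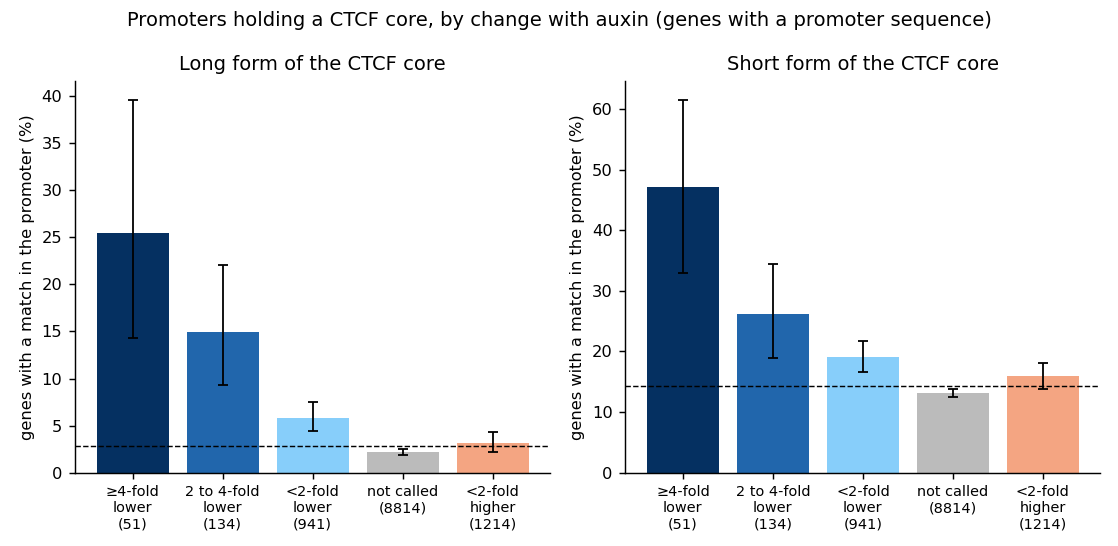
Percent of genes with a match to the long (left) or short (right) form of the CTCF core in a promoter window, by change with auxin; the number of genes with a window stands under each bar, error bars are exact 95% binomial intervals and the dashed line is the share of all genes. The bars fall from 25.5% and 47.1% in genes at least 4-fold lower to 2.18% and 13.1% in genes not called.

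The matches of the lower genes also had a side and a place. In genes at least 2-fold lower, 28 of 34 long matches (82.4%) read along the gene's own strand, as in the printed promoters, against 115 of 197 (58.4%) in genes not called and 24 of 39 (61.5%) in genes less than 2-fold higher. The centre of these 28 lay a median of 54.5 bases before the start (quartiles 35 and 77.5), and 25 of them lay within 100 bases before it, 73.5% of all 34 matches against 27.9% in genes not called. At the second free base of the short form, 27 of 34 matches had G (79.4%), against 89 of 197 (45.2%) in genes not called. This was the largest difference among the free bases of the long form. At the first free base of the short form G was in 22 of 34 (64.7%) against 101 of 197 (51.3%). The genes less than 2-fold lower were in between on strand and place, with 42 of 55 long matches (76.4%) on the gene's strand and 28 of them within 100 bases before the start.

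Promoter motifs that could form a G-quadruplex, a stacked four-stranded fold of G-rich DNA, did not follow the same order. The search asked for 4 runs of at least 3 G with loops of 1 to 7 bases on either strand. Such a motif was in 7 of 51 genes at least 4-fold lower (13.7%, 5.70 to 26.3), in 32.1% of genes 2-fold to 4-fold lower, in 34.8% of genes less than 2-fold lower, in 31.1% of genes not called and in 38.6% of genes less than 2-fold higher (35.8 to 41.4). All genes with a window had it in 32.1%. With loops of up to 12 bases the share among genes at least 4-fold lower was 31.4%, against 46.5% of genes not called.

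The 12 largest rises above a mean log2 CPM of 1 were in genes at under 8 CPM in every untreated library. Dio3 (chr12:110279068-110281097), an imprinted gene whose enzyme inactivates thyroid hormone, rose from 1.07, 0.832 and 1.18 CPM to 5.08 and 5.98 CPM. Ocel1 (chr8:71371298-71379361), with a domain shared with occludin, rose from 6.59, 4.26 and 4.37 CPM to 26.4 and 24.3 CPM, 4.9-fold. Dbil5, a relative of the acyl-CoA binding protein, rose from 2.03, 1.96 and 2.02 CPM to 9.81 and 8.51 CPM. Among untreated libraries Ocel1 and Dbil5 were highest in replicate 1 and Dio3 in replicate 3.

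Lxn, the carboxypeptidase inhibitor latexin, rose from 2.66, 3.03 and 2.75 CPM to 12.2 and 12.7 CPM. It overlaps, on the opposite strand, Gfm1, a mitochondrial elongation factor gene that fell by 1.40 on the log2 scale. Ocel1 and Dbil5 also overlap tested genes on the other strand. Serpinb9, an inhibitor of granzyme B, was 4.02-fold higher, Slc25a45, of the mitochondrial carrier family, 3.79-fold, Slc16a14, of the monocarboxylate transporter family, 3.34-fold, Ecm1, a matrix protein gene, 3.32-fold, and Htr3a, a subunit of the ionotropic serotonin receptor, 3.14-fold. Scml2 (chrX:161117193-161258213), a Polycomb-associated protein of the germline, rose from 5.79, 7.44 and 6.61 CPM to 20.6 and 19.6 CPM. H2-Q10, a class Ib histocompatibility gene, was 3.43-fold higher, but near-identical copies lie beside it and its reads are uncertain.

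Genes close to each other tended to move the same way. Pairs of called protein-coding genes that do not overlap, protocadherin pairs left out, went in the same direction in 65 of 86 pairs (75.6%) with starts less than 10 kb apart, in 302 of 460 (65.7%) at 10 to 50 kb, in 64.2% at 50 to 100 kb, in 58.1% at 100 to 500 kb and in 56.4% at 500 to 1000 kb. Without EV untreated replicate 1 the shares were 78.2%, 69.2%, 68.5%, 63.4% and 60.2%. With offsets for the GC content and length of genes they were lower, at 68.1%, 59.3%, 54.8%, 52.3% and 50.7%. The offsets lowered the share at every distance, and with them 717 of 1182 pairs within 50 kb (60.7%) went the same way. How far GC content enters the share was not tested. Genes enter several pairs, so the pairs are not independent.

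**Figure D4:**
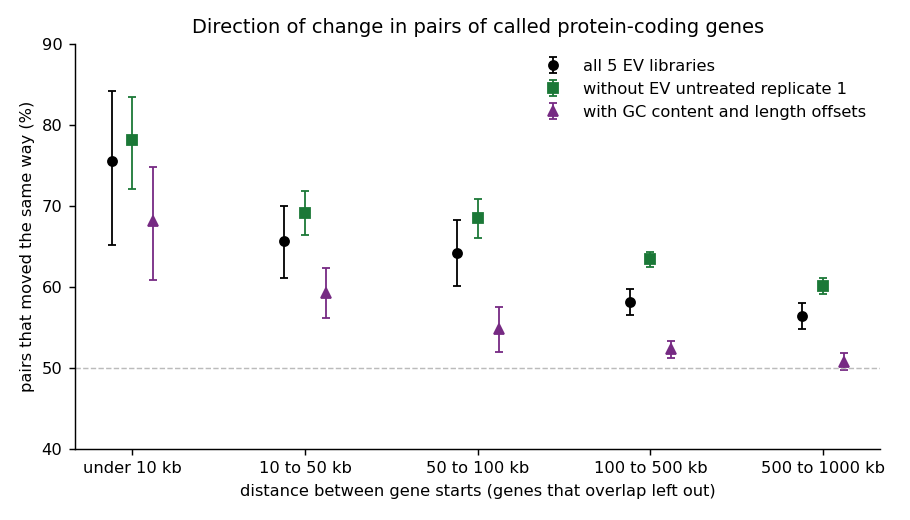
Percent of pairs of called, non-overlapping protein-coding genes that moved in the same direction (vertical axis, from 40%) by distance between gene starts, with all EV libraries, without EV untreated replicate 1 and with GC content and length offsets. Error bars are exact 95% binomial intervals that treat pairs as independent; the share falls from 75.6% under 10 kb to 56.4% at 500 to 1000 kb with all libraries.

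Where both neighbours changed at least 2-fold, opposite moves were about as frequent. There were 17 such pairs within 50 kb, from 28 genes, 9 in the same direction and 8 in opposite directions. On chromosome 3, Car2, a carbonic anhydrase gene, fell from 58.8, 68.2 and 65.8 CPM to 29.0 and 28.5 CPM. Its neighbour Car3, another member of that family 22.8 kb away, rose from 1.76, 1.81 and 1.91 CPM to 4.73 and 4.61 CPM. On chromosome 7, Gys1, the muscle glycogen synthase gene, rose from 110.3, 96.6 and 99.8 CPM to 238 and 252 CPM. The potassium channel gene Kcna7, 29.2 kb from it, had 27, 19 and 13 counts untreated and 2 and 2 counts with auxin.

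On chromosome 17, 3 neighbours rose beside a gene that fell. Slc35b2, the transporter of the sulphate donor PAPS, went from 36.5, 32.5 and 32.0 CPM to 13.2 and 14.0 CPM. Nfkbie, an inhibitor of NF-kappaB whose start is 8.17 kb away, was 2.06-fold higher, Tmem151b 2.21-fold and Tcte1 3.17-fold. Tmem151b and Tcte1 overlap on opposite strands, so their reads could have been mixed. Slc35b2 makes an opposite pair with each of these 3 genes, so the opposite pairs are not independent. On chromosome 11, Nle1, a ribosome assembly gene, fell from 81.4, 63.4 and 64.5 CPM to 15.0 and 15.2 CPM, while Slfn5, of the Schlafen family, 42.9 kb away, rose 2.64-fold. The printed gene Abhd14b fell beside Parp3, a poly(ADP-ribose) polymerase gene that rose 2.27-fold at 29.5 kb. Pairs that moved together included Dlx1 and Dlx2, both higher, and Zfp398 and Zfp786, both lower.

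Gene families were read against the background of 11.3% higher and 9.4% lower, with no test of any list and no claim beyond the counts. The median log2 fold change of all genes was 0.0087. Among clustered protocadherins, neuronal adhesion proteins whose variable exons lie in tandem, 13 of 16 tested members were lower and none higher. All were of the gamma cluster, which share exons and whose reads could be split between members. Pcdhga7 had 22, 19 and 19 counts untreated and 0 and 0 with auxin, at least 4.60-fold lower against 3 counts in the smaller library. The 3 that did not pass were Pcdhga12 (log2 fold change -0.37), Pcdhgc3 (0.15) and Pcdhgc5 (-0.07). Of the other protocadherins and cadherins 4 of 23 were higher and 2 lower, among the latter Cdh3 (P-cadherin, 1.19-fold).

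Targets of p53, the transcription factor that answers DNA damage, were lower in 22 of 34 and higher in 2. Btg2, which restrains proliferation, went from 88.2, 92 and 91.8 CPM to 51.5 and 45.3 CPM, and Cdkn1a, the p21 inhibitor of cyclin-dependent kinases, from 122, 110.1 and 109.2 CPM to 67.4 and 64.7 CPM. The Trp53 transcript itself stood at 421, 420 and 427 CPM untreated and 390 and 396 CPM with auxin and did not pass (edgeR adjusted p = 0.111). Of 62 genes of the cell cycle and DNA replication 14 were lower and 3 higher. The replication genes Rfc5, a clamp loader subunit, and Rrm2, a subunit of ribonucleotide reductase, were 1.28-fold and 1.27-fold lower, while Ccne1 (cyclin E1) was 1.26-fold higher.

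Pluripotency genes moved both ways. Of 35 naive and core factors 12 were lower and 6 higher. Oct4 (Pou5f1) and Nanog did not pass, with log2 fold changes of -0.03 and -0.09. Esrrb, an orphan nuclear receptor of the naive state, went from 778, 776 and 774 CPM to 605 and 633 CPM. Nr0b1, another nuclear receptor, was 1.63-fold lower and Fgf4, the growth factor that starts ESC differentiation, 1.48-fold lower. Klf4 rose from 353, 339 and 331 CPM to 436 and 435 CPM and Dppa3 (Stella), an oocyte and germline factor, from 16.1, 14.9 and 14.4 CPM to 31.5 and 31.3 CPM. Of 24 formative and primed genes 5 were higher, such as Dnmt3b (1.28-fold), and 3 lower, such as Etv5 (1.27-fold).

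The Nodal and Wnt pathways had members that moved both ways. For Nodal, which signals through SMAD proteins, 8 of 30 genes were higher and 4 lower. Lefty1, a secreted inhibitor of Nodal, rose from 43.1, 34.0 and 34.1 CPM to 76.1 and 86.0 CPM, and Lefty2 from 58.8, 57.6 and 57.3 CPM to 116 and 112 CPM. The ligand Nodal was slightly lower (43.2, 43.2 and 40.4 CPM against 36.5 and 37.2 CPM). In the Wnt list, 5 of 29 were higher and 4 lower. Its feedback inhibitors went opposite ways: Nkd1 was 2.04-fold higher, with both auxin libraries above all untreated ones, while its relative Nkd2 fell, and Axin2, the usual readout of the pathway, did not pass (log2 fold change 0.06).

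The BMP list had 8 of 27 genes higher and none lower (11 and 2 without EV untreated replicate 1), with a median log2 fold change of 0.29. They were the inhibitors of differentiation Id2 and Id3, the homeobox genes Msx1, Msx2, Dlx1, Dlx2 and Dlx3 and the BMP antagonist Nog. Dlx2 rose from 0.866, 0.734 and 0.735 CPM to 3.88 and 4.28 CPM. The Notch list had 8 of 27 higher and 4 lower, with the ligand gene Dll1 higher (log2 fold change 0.44) and the ligand gene Jag1 lower (-0.46). Of the Hedgehog list 2 of 14 were lower, Gli2 (1.36-fold), a transcription factor, and Hhip (1.76-fold), an antagonist, and none was higher, but without EV untreated replicate 1 it was 3 higher and 2 lower. The FGF and ERK list had 6 of 37 higher, among them Myc (log2 fold change 0.61), and 5 lower. For YAP and TEAD targets it was 4 of 18 higher, Ccn2 among them at 1.70-fold, and 3 lower.

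Most lineage lists had more members higher than lower. Mesendoderm and primitive streak genes were higher in 7 of 27 and lower in none, with a median log2 fold change of 0.55. Kdr, the VEGF receptor of mesoderm, rose from 1.70, 1.57 and 1.47 CPM to 3.19 and 3.36 CPM, and Cdx1, a caudal homeobox gene, from 7.22, 5.97 and 5.77 CPM to 13.3 and 14.2 CPM. Hox genes were higher in 4 of 14 and lower in none. Neural genes split, with 11 of 28 higher, such as Mapt (tau, 1.71-fold) and Nkx6-1 (log2 fold change 2.37), and 6 lower, such as Neurod1 (2.07-fold). Trophoblast factors and simple keratins were higher in 7 of 20, Krt18 from 26.0, 24.4 and 24.0 CPM to 35.5 and 38.6 CPM, and lower in 1, Tfap2c. Primitive endoderm regulators were higher in 5 of 23, such as Gata4 (1.58-fold), and lower in 1.

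Markers of some other cell types were also summed, though some, such as Kdr and Gata4, are members of these lists. Called higher were 2 of 6 mesoderm markers (Mixl1 and Kdr) and 1 of 3 tested trophoblast markers (Krt7). For endoderm it was 1 of 10 (Gata4), no neural marker was called, and none of these markers was called lower. Summed over 6 mesoderm markers the level was 11.4 to 12.4 TPM in EV untreated and 15.0 to 15.9 TPM in EV auxin, over 8 trophoblast markers 7.86 to 10.5 against 11.4 to 12.9 TPM (Tpbpa and Prl3d1 listed at 0), so that both sums were higher with auxin. The sums overlapped for 10 endoderm markers (23.6 to 31.1 against 29.8 to 31.1 TPM) and for 6 neural markers (339 to 407 against 370 to 379 TPM). In bulk RNA more cells of a type and more RNA per cell cannot be told apart, and their part in the list counts was not tested.

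Epithelial, matrix and adhesion genes came next. Of 21 genes of claudins and tight junctions 8 were higher and 1 lower, Cldn6 from 52.0, 48.7 and 48.5 CPM to 69.1 and 75.2 CPM. Collagens, laminins and basement membrane genes were higher in 15 of 65, among them Lama3 (1.71-fold) and 5 chains of collagen VI, and lower in 7, and with GC content and length offsets 16 were higher and 14 lower. The largest fall of this list was Col27a1, a fibrillar collagen, from 2.23, 1.37 and 2.20 CPM to 0.171 and 0.208 CPM. Integrins were higher in 1 of 21 and lower in 2, and Itga9, a receptor of tenascin, fell from 17.9, 18.2 and 16.6 CPM to 4.11 and 4.57 CPM. Genes of the actin cytoskeleton and SRF targets were higher in 7 of 36 and lower in 2. For semaphorins, plexins, ephrins and other guidance genes it was 14 of 58 higher, such as Nrp2, a semaphorin and VEGF receptor (55.3, 54.8 and 56.7 against 99.1 and 94.8 CPM), and 10 lower.

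Interferon-stimulated genes, which defend against viruses, were higher in 15 of 32 and lower in 3, with a median log2 fold change of 0.35. Dtx3l and Parp9, partners that act together in ubiquitylation and ADP-ribosylation, rose 1.68-fold and 1.64-fold. They lie head to head and their annotated first parts overlap on opposite strands. Irf1, a transcription factor, went from 30.2, 29.5 and 29.1 CPM to 39.7 and 40.2 CPM. Psmb8, an immunoproteasome subunit, was 2.41-fold higher, in a proteasome list with 3 of 38 higher and 3 lower.

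Metabolic lists had more members lower than higher, but only cholesterol and fatty acid synthesis was called well above the share of all genes (34.3% against 20.7%). Cholesterol and fatty acid synthesis genes were lower in 11 of 35 and higher in 1, with a median log2 fold change of -0.14. Scd2, a fatty acid desaturase, went from 858, 939 and 923 CPM to 612 and 627 CPM, and Hmgcs1, an early enzyme of cholesterol synthesis, was 1.28-fold lower. Nuclear genes of oxidative phosphorylation were lower in 12 of 81 and higher in 1, and Ndufb7, a subunit of complex I, had 82.8, 53.9 and 57.2 CPM untreated, replicate 1 apart from the others, and 26.3 and 27.5 CPM with auxin. In glycolysis and hypoxia 5 of 38 were lower and 3 higher (21.1% called), with a median log2 fold change of 0.019. The glucose transporter genes Slc2a1 (1.44-fold) and Slc2a3 (1.35-fold) were among the lower ones.

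Of 74 mitochondrial ribosomal protein genes 8 were lower and 5 higher (11 and 13 without EV untreated replicate 1), but single members changed strongly. Mrps2 fell from 89.3, 101.8 and 97.9 CPM to 28.9 and 28.1 CPM and Mrps16 rose from 44.5, 35.2 and 39.0 CPM to 87.8 and 87.6 CPM. Cytosolic ribosomal protein genes passed in 4 of 90, all lower, below the background. The integrated stress and unfolded protein response had 9 of 41 lower, such as Mthfd2, a folate enzyme (1.35-fold), and 7 higher, such as Edem1 (1.36-fold). NRF2 targets, which answer oxidative stress, were higher in 4 of 21, among them Srxn1 (1.48-fold) and Gclm (1.40-fold), and lower in 3 (3 higher and 4 lower without EV untreated replicate 1). Heat shock genes were higher in 3 of 20 and lower in 1.

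Among the remaining lists, snoRNA host transcripts were lower in 6 of 19 and higher in none, and replication-dependent histones lower in 5 of 25 and higher in none. Most histone transcripts of this kind lack poly(A) tails, and the lower Hist3h2a lies within Trim17, which rose (log2 fold change 1.03). Imprinted genes were lower in 11 of 50, Peg12 most (log2 fold change -1.52), and higher in 6, with Nnat, a neuronal proteolipid, at 1.97-fold beside Dio3. In the locus of Dio3 the maternally expressed transcripts Meg3 and Rian were lower (log2 fold change -0.54 and -0.44). Germline genes were higher in 11 of 54 and lower in 7, with the Tudor protein gene Tdrd12 going from 20.8, 22.9 and 21.6 CPM to 9.75 and 9.75 CPM. Of 22 genes of the 2-cell-like state 1 was higher and 1 lower, or 1 and 3 without EV untreated replicate 1.

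Several chromatin lists depended on EV untreated replicate 1, without which 33.2% of all genes were called. Of 32 genes of CTCF, cohesin and condensin 2 were higher and 4 lower, or 3 and 13 without it, and the paralogue Ctcfl was 1.82-fold lower from under 4 CPM. Polycomb genes were higher in 3 of 36 and lower in 4, or 5 and 12 without it (7 and 4 with GC content and length offsets), and DNA methylation genes higher in 5 of 25 and lower in 3. Of 375 zinc finger Zfp genes 23 were higher and 20 lower, but 76 were lower and 39 higher without EV untreated replicate 1. Of 15 helicases linked to G-quadruplexes 2 were higher and 2 lower, or 3 and 6 without it. Aqr, an RNA helicase of the spliceosome, went from 323, 362 and 380 CPM to 209 and 210 CPM, and Dna2, a nuclease and helicase, from 99.2, 95.8 and 99.9 CPM to 140.2 and 134 CPM. Targets of the aryl hydrocarbon receptor were higher in 2 of 12, Cyp1a1 and Cyp1b1, and lower in 1, Fam3c (65.1, 68.1 and 64.7 against 25.7 and 27.4 CPM), and 2 were higher and 4 lower without EV untreated replicate 1. Visceral endoderm uptake genes were higher in 3 of 23 and lower in 2, and mitochondrially encoded genes lower in 1 of 8 and in 6 of 8 without EV untreated replicate 1.

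**Figure D5:**
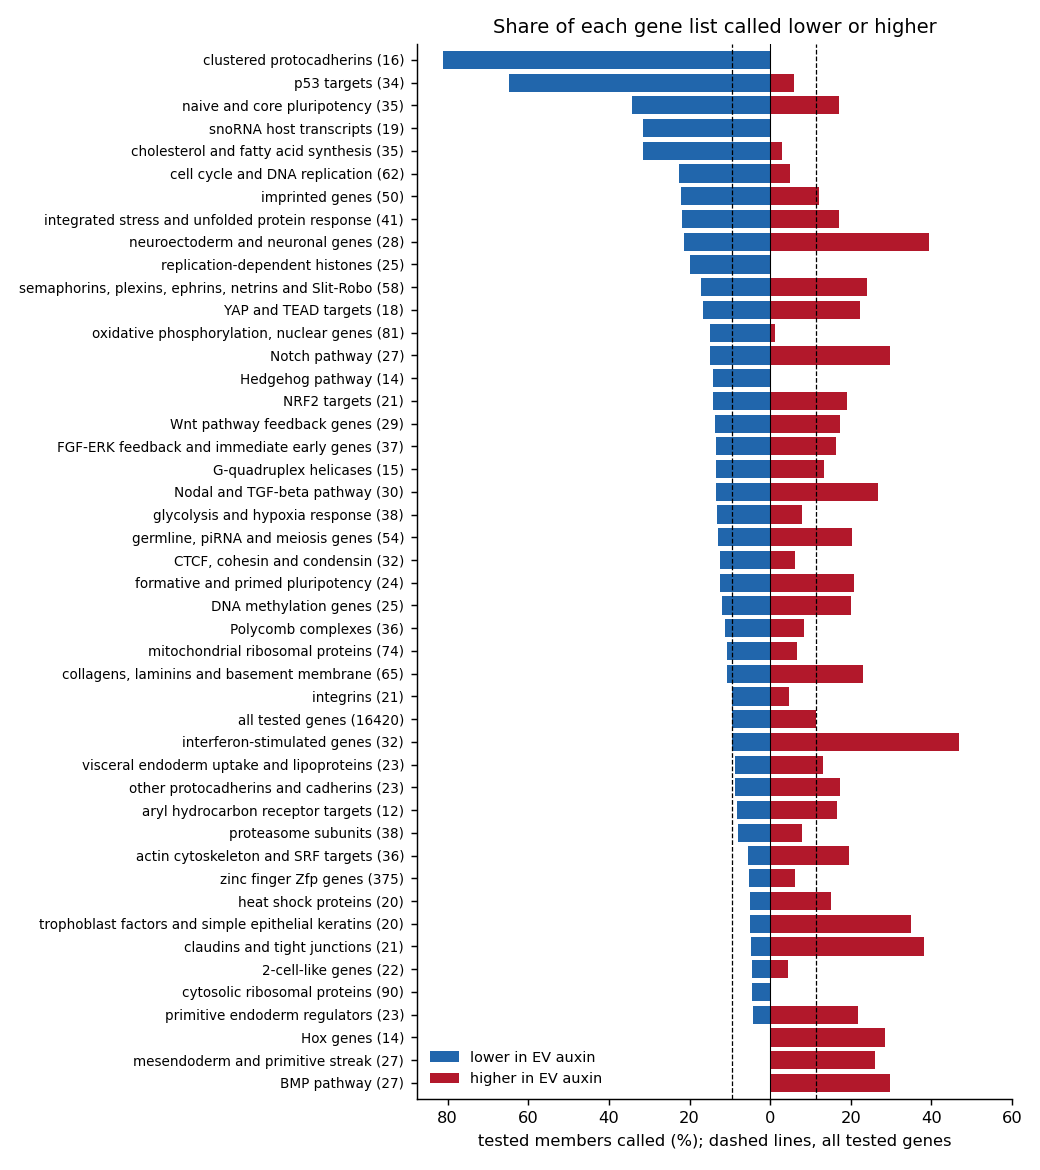
Percent of the tested members of each gene list (number tested in parentheses, lists of under 10 left out) that were called lower (blue, to the left) or higher (red, to the right) in EV auxin. Dashed lines mark the 9.4% and 11.3% of all tested genes; clustered protocadherins and p53 targets reach furthest to the left and interferon-stimulated genes furthest to the right.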

How the data were processed

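RNA was purified on columns and made into directional libraries for an Illumina NovaSeq instrument, per the labels' protocols. The authors deposited raw counts per gene symbol and TPM values for the same libraries. The submitters' processing notes name featureCounts, Subread 2.0.3, DESeq2 and the build mm10 (GRCm38). The aligner, the annotation and the strand setting of the counting are not given in the sources used here. No column belonged to other samples. Nothing in the labels says that replicates came from separate cultures, so p-values measure the spread between these libraries, which may be technical.

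Counts were tested in R 4.3.3 with edgeR 4.0.16 (TMM scaling, filterByExpr by group, a group-means model over all 11 libraries, quasi-likelihood F test, Benjamini-Hochberg adjustment over 16420 genes, threshold 0.05). CPM is TMM-scaled. A group with 3 counts or fewer in every library was set to 3 counts in its smallest library, and the fold given as a bound. These intervals and bounds describe counting error alone, as no molecular identifiers mark the original molecules. Gene positions and types came from GENCODE M21 (GRCm38), which held 98.9% of the tested symbols. Lists were described by counts and medians only.

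Named genes were Ctcf, the 12 largest rises and 12 largest falls past the threshold that averaged 1 or more in log2 CPM and whose groups did not overlap, and up to 3 members of each of 46 lists with the smallest adjusted p. The comparison, lists and members were chosen with earlier results of these data known. Some genes that this rule names are not reported here. Other genes were named after their values were seen, among them further list members and the pairs of neighbours.

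The analysis was repeated with edgeR's RLE or upper quartile factors, with DESeq2 1.42.0, without the filter or keeping genes that reached 10 counts in all libraries, on the EV libraries alone, with a replicate block, with robust dispersion, at an adjusted p of 0.01, with glmTreat (1.2-fold) and with offsets for GC content and length (lowess, span 0.2). It was also run with limma 3.58.1 on log2(TPM + 1), for genes that reached 1 TPM in 2 libraries or for all genes, with a pseudocount of 0.1, and leaving out each library. Scripts were tested on simulated counts.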

Additional observations from a re-analysis of the deposited data

How the results depend on the processing

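Counts of called genes moved with the setting. None of the 147 genes named by the rule changed direction. All but Ctcf were chosen for large changes or small adjusted p in these libraries, so this is no check of stability. The total was 2016 with only the 5 EV libraries (1006 higher, 1010 lower), 1223 with glmTreat against 1.2-fold (664, 559), 1939 at an adjusted p under 0.01 (1037, 902) and 5111 with GC content and length offsets (2392, 2719). It was 6466 (3122, 3344) with only the EV libraries and EV untreated replicate 1 left out, an alternative added after seeing the data. On the log2(TPM + 1) scale without a filter limma called 984 genes lower. Leaving out each library in turn gave 1569 to 5444 genes, 759 to 2606 higher and 810 to 2838 lower. Same-numbered EV libraries deviated with r of -0.0856 and -0.0549 over 2 pairs. The deviations of 2 EV auxin libraries from their mean mirror each other, so these values cannot decide whether the replicate numbers pair the libraries. With the replicate block 3197 genes passed, and with the replicate block and GC content and length offsets 5015, of which 2707 were lower. Of 3056 values of these genes over 21 settings 131 lost the threshold and 2 gained it, the largest number of losses (38) with glmTreat. The causes were not tested. Genes at least 4-fold lower outnumbered those at least 4-fold higher in each setting run at a threshold of 0.05.

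The median log2 fold change changed sign for 3 lists with small medians: with the offsets for formative and primed genes (-0.000671) and for FGF and ERK genes (-0.0443), and with the replicate block and offsets for these (-0.0223 and -0.0345) and for DNA methylation genes (-0.0223). With the offsets the balance of members called higher and lower also turned for visceral endoderm genes (3 higher, 4 lower) and Polycomb genes (7 higher, 4 lower). It became even for formative and primed genes (6 and 6), FGF and ERK genes (8 and 8) and the Wnt list (6 and 6). The same held for NRF2 targets (4 and 4) and aryl hydrocarbon receptor targets (3 and 3). The balance turned for all tested genes as well (2392 higher, 2719 lower). The share of promoters with the long CTCF core among genes at least 4-fold lower was 21.4% to 26.1% when a library was left out. With other spellings it was 47.1% (short form), 41.2% (C, 3 bases, AG, 2 bases, GGCGC), 11.8% (CC, 3 bases, AGGGGGC), 7.84% (CCA, 2 bases, AG, 2 bases, GGC), 5.88% (CCA, 2 bases, AG, 1 base, GGGC) and 3.92% (CCAC, 1 base, AG, 2 bases, GGC). Pairs of neighbours moved the same way in 67.2% within 50 kb, 75.6% within 10 kb, 59.9% within 500 kb and 60.7% within 50 kb with the offsets, and in 70.7% without EV untreated replicate 1. Depth limits the clustered protocadherins, 7 of which had 3 counts or fewer in both EV auxin libraries.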

Other observations

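Noncoding transcripts of the types given here passed the threshold less often than protein-coding genes. Called changes of at least 2-fold were not less frequent among them. Of 242 antisense genes 25 were lower and 12 higher (15.3% called), and of 158 processed transcripts 14 and 4 (11.4%). Of 363 lincRNAs 24 were lower and 24 higher (13.2%), and of 14264 protein-coding genes 1423 and 1773 (22.4%). At least 2-fold, 14 antisense genes were lower and 7 higher, and 4 and 2 processed transcripts. For lincRNAs it was 7 and 12, and for protein-coding genes 241 and 246. How far expression level enters these shares was not tested. Of all tested genes 20.7% were called, 11.3% higher and 9.4% lower. That balance turned without EV untreated replicate 1 (2606 higher, 2838 lower). Reads of an antisense gene and its partner may be mixed, since the strand setting of the counting is not given. The processed transcript 2010204K13Rik, on the X chromosome, had 17.6, 11.3 and 10.2 CPM in EV untreated and 5.82 and 5.98 CPM in EV auxin. The lincRNA Epb41l4aos, a snoRNA host, had 13.7, 9.64 and 9.07 CPM and then 4.96 and 5.19 CPM. In both, EV untreated replicate 1 was the highest library. Gm17322 went the other way, from 6.16, 5.73 and 5.84 CPM to 14.8 and 16.3 CPM, and Gm47725 from 4.03, 4.55 and 5.10 CPM to 9.92 and 8.47 CPM.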
